A study of Mus musculus with 2 samples.

Results

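The cytosolic ribosomal protein genes encode the protein subunits of the ribosome that translates nuclear messages. Members were chosen by symbol alone: Rpl or Rps followed by a number, Rplp0 to Rplp2, and Rpsa, without pseudogene names and without the Rps6k kinases. They are 84 of the 31053 genes in the feature tables, 52 of the large subunit and 32 of the small subunit. Of these, 83 had at least 1 UMI (a counted RNA molecule) in the cells kept here, and Rpl10l had none. The listed paralog Rps4l was not analysed here.

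The samples were 2 single-cell libraries from C57BL/6 mice, 1 per group. All mice had received zymosan, a yeast cell wall preparation that draws leukocytes, into the eye. The NRS mice were also given normal serum, and the aCXCR2 mice antiserum against CXCR2, the chemokine receptor that guides neutrophils out of the blood. Cells came from vitreous fluid and a PBS rinse of the retina and, in both groups, were selected on beads for the neutrophil surface protein Ly6G. The labels and the series text state no age, sex, dose, timing or number of animals pooled. The comparison asks how cells that reach the eye differ when CXCR2 is blocked. With 1 library a group there is no replicate check, so mouse, capture and sequencing cannot be told apart from treatment, and no test was made.

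Each ribosome carries 1 copy of most of these proteins, and cells make them in matched amounts. Their messages are short, abundant and stable. Most begin with a run of pyrimidines at the first transcribed base, the 5′ terminal oligopyrimidine (TOP) tract, through which mTOR and Larp1 adjust their translation together. Mature neutrophils make little protein compared with macrophages, and developing neutrophils switch the biosynthetic machinery down as they mature.

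The start windows below show where such runs lie, which the choice of members did not use. Each runs from 10 bases before to 20 bases from the annotated transcription start on, 5′ to 3′ on the gene's own strand, from RefSeq on GRCm38.p6. Capitals mark the longest unbroken run of C and T where it reached 7 bases. The first base of the transcript is letter 11. The first 6 genes are examples with a run, taken after the values were seen from the 10 members whose part in the ribosomal protein UMIs varied most across cell clusters. In Rps27l and Rpl10a the run ends before the annotated start.
Rps9 (chr7:3704031-3704060, plus strand): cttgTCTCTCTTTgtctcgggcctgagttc
Rps27 (chr3:90213629-90213658, minus strand): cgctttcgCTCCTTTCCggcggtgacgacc
Rps27l (chr9:66946076-66946105, plus strand): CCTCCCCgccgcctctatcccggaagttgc
Rpl12 (chr2:32961702-32961731, plus strand): agcaggatccgTCTTTTCggctttcggctc
Rpl22l1 (chr3:28805498-28805527, plus strand): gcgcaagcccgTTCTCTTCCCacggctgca
Rpl10a (chr17:28328461-28328490, plus strand): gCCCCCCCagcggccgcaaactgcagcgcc
The other 4 are shown for contrast: Rpl27a and Rps3a1 held nearly the same part in every cluster, and Rps28 and Rps19 had large gaps between libraries without a run.
Rpl27a (chr7:109519185-109519214, plus strand): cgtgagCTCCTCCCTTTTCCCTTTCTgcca
Rps3a1 (chr3:86142649-86142678, minus strand): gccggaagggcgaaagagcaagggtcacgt
Rps28 (chr17:33824543-33824572, minus strand): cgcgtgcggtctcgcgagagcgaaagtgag
Rps19 (chr7:24884582-24884611, plus strand): aatctcgcgagactcgacgcccgacttgtg
A RefSeq start was listed for 64 members. A run of at least 7 bases of C or T lay in 29 of these windows (45.3%), against 17.9% of the windows of all 27025 listed genes. The same search on the other strand found 3 member windows (4.69%), against 20.4% of all windows. Runs of at least 9 bases were in 31.2% of member windows and 7.10% of all windows. Among the genes shown, Rpl12 with a run and Rps28 and Rps19 without one had the largest gaps between libraries, and Rpl27a with a run and Rps3a1 without one were among the steadiest. An annotated start can lie some bases from the start used in these cells, and a window without a run says only that these letters are not in it. Each window is at the listed start nearest to the gene's start in GENCODE, another annotation. That of Rps19, the nearest of 3 listed, still lies 221 bases from it, and the others were not searched. That of Rpl12 lies 153 bases off.

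All 84 members were matched by gene ID to GENCODE vM21, on GRCm38. They lie on 19 chromosomes, 14 of them on chromosome 7. Rps9 spans chr7:3703993-3706897 on the plus strand and overlaps no other gene. Rpl12 (chr2:32961559-32965345, plus strand) and Rps28 (chr17:33819027-33824562, minus strand) overlap Lrsam1 and Kank3 on the other strand. Rpl13, Rpl13a, Rpl36al and Rps10 overlap another protein-coding gene on their own strand. No source here says how the authors' counting divided shared reads, and the values of these 4 are uncertain, as are those of members with near-identical processed copies elsewhere in the genome. A level is given as CPM, a gene's UMIs scaled to 1000000 UMIs of the same cells. These are counts of 3′ ends and are not divided by gene length. Intervals are 95% and cover counting error only.

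The NRS library held 7314 barcodes and 61386486 UMIs, and the aCXCR2 library 5551 barcodes and 85748842 UMIs. Cells kept for analysis numbered 5655 and 4826, with a median of 4759 and 10383.5 UMIs. A set of 101 barcodes occurred in both libraries, of which 53 were kept in both. Despite the Ly6G selection, macrophage-scoring clusters made up 10.6% of NRS and 36.6% of aCXCR2 cells, and rod-like clusters 11.1% and 4.31%. Ly6g itself was at 11.9 and 120 CPM in neutrophil-like cells and at 2.12 CPM or less in macrophage-scoring cells. Clusters were formed without the member genes. They are called by number, and by a class only where the marker lists allowed it.

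Over all kept cells the ribosomal protein genes took about the same part of the RNA in both libraries. Their share of UMIs was 8.77% in NRS (8.76 to 8.78%) and 8.55% in aCXCR2 (8.54 to 8.56%). Rps9 was the 1 of 81 members tested that differed by at least 1.5-fold, being higher in aCXCR2, where 11.7% of all genes tested were higher and 25.7% lower by that measure. A gene was tested where it reached 50 CPM in either library, which 81 of the 84 members did in each class below. Rpl10l, Rpl39l and Rpl3l did not. The whole-library figure joined classes that differed in share and were present in unequal numbers.

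Neutrophil-like cells of the aCXCR2 library carried a much smaller ribosomal protein share than those of the NRS library. The share was 8.23% in NRS (8.21 to 8.24%; 3586 cells) and 3.90% in aCXCR2 (3.89 to 3.91%; 2658 cells), a log2 ratio of -1.08. The median cell had 7.40% in NRS and 2.97% in aCXCR2. Counted per cell the gap was smaller, a median of 318 member UMIs in NRS and 229 in aCXCR2. The aCXCR2 cells had more UMIs in all (medians of 4566.5 and 7652), and these counts are not corrected for depth. S100a8 and S100a9, the calcium-binding proteins that fill the neutrophil cytosol, took 3.15% of these cells' UMIs in NRS and 15.4% in aCXCR2. With both removed from the total, the shares were 8.50% and 4.61%.

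That ratio depended on which clusters made up the class in each library. Clusters 0 and 1, led by Wfdc21, Lst1 and Mmp9 and by Gdf15 and Itpr2, made up 61.4% of the neutrophil-like cells of NRS and 7.07% of those of aCXCR2. Clusters 5, 8 and 12, led by Lcn2 and Mmp8, by Ifitm1 and Cxcl10, and by Retnlg and Ngp, held 26.6%, 18.7% and 14.97% of the class in aCXCR2. In NRS they held 1.95%, 4.04% and 0.279%. To compare like mixes, clusters were weighted by their UMIs, of which clusters 0 and 1 held 62.2% in NRS and 4.60% in aCXCR2. With the NRS mix of clusters applied to the aCXCR2 shares, the class share was 7.26% and the log2 ratio -0.18. With the aCXCR2 mix applied to the NRS shares it was 5.27%, and the log2 ratio was -0.43. That mix gives 13.3% of the weight to the NRS share of cluster 12, which comes from 10 cells. Clusters 0 and 1 had the lowest neutrophil scores of the class, and cluster 1 the lowest of all (0.220, with rod genes second at 0.139). Without cluster 1 the log2 ratio was -0.91, and without both it was -0.44. The gap in member UMIs per cell turned round without both, with medians of 149 in NRS and 222 in aCXCR2.

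Across the neutrophil-like clusters the share spanned from 2.31% to 10.5% of UMIs. Clusters 0 and 1 were at the top, with 9.92% and 10.5% in NRS and 9.04% and 9.83% in aCXCR2. Cluster 5 had 6.22% in NRS and 5.52% in aCXCR2, and cluster 3, led by Prok2 and Ccl3, had 6.03% and 4.62%. Clusters 4 (G0s2, Ccl4), 11 (Hdc, Cxcr2, Il1r2) and 12 were low in both libraries: 3.37% and 2.31%, 3.63% and 3.01%, and 3.23% and 2.40%. Cluster 12 rests on 10 NRS cells. These 3 also carried most of the S100a8 and S100a9 RNA, together with cluster 8 in aCXCR2.

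Within clusters the libraries differed less than over the class, and by the most in cluster 8, whose leading genes include the interferon-induced Gbp2, Cxcl10 and Isg15. Its share was 6.09% in NRS (145 cells) and 2.99% in aCXCR2 (497 cells), a log2 ratio of -1.03. S100a8 and S100a9 took 5.12% of its UMIs in NRS and 19.1% in aCXCR2, and without them the log2 ratio was -0.79. The median number of member UMIs per cell was 190 and 187, and that of all UMIs 4264 and 7694.

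Of the 13 clusters with at least 50 cells from each library, the share was lower in aCXCR2 in 12 and higher in 1, with log2 ratios from -1.03 to 0.05 and a median of -0.25. All 7 neutrophil-like clusters of this kind were lower on total UMIs. Under TMM factors, which rescale each library to the bulk of its genes, clusters 4 and 5 turned to 0.02 and 0.11, and cluster 8 stood at -0.27. Members lower by 1.5-fold on total UMIs numbered 77 of 80 in cluster 8, where 47.0% of genes were lower, and 43 of 80 in cluster 4 (32.2% of genes). They were 21 of 81 in cluster 3 (14.5%), 13 of 80 in cluster 11 (18.3%) and 3 of 81 in cluster 5 (15.7%). In clusters 0 and 1 they were 0 of 81, where 8.31% of genes were lower in each. The plot of shares by cluster shows both levels of the comparison at once.

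**Figure D1:**
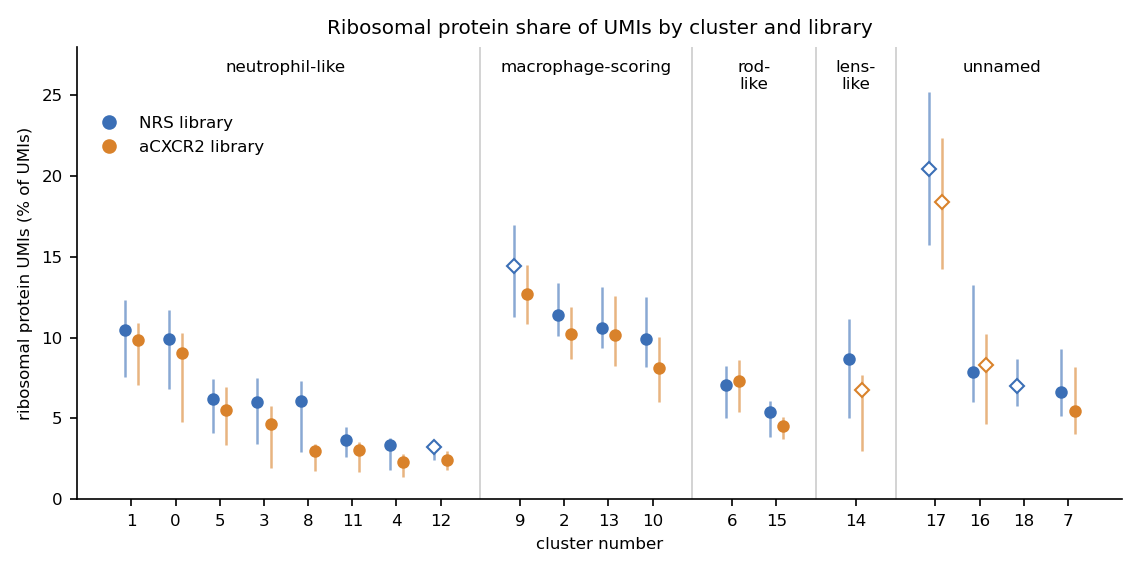
Share of UMIs from the 84 ribosomal protein genes (percent) in each cluster, over the summed UMIs, blue for NRS and orange for aCXCR2; lines span the middle 50% of cells, and open diamonds mark 10 to 49 cells (fewer are not drawn). The neutrophil-like clusters run from 2.31% to 10.5%, while the gap between the libraries within a cluster is widest in cluster 8, at 6.09% and 2.99%.

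Among single members in neutrophil-like cells, 77 of 81 were at least 1.5-fold lower in aCXCR2 and 0 were higher, where 43.5% of all 3200 genes tested were lower and 8.75% higher. At least 2-fold lower were 58 members, against 19.8% of all genes. The median log2 ratio was -1.13 over members and -0.49 over all genes tested. Under TMM every log2 ratio moved up by 0.72, and 25 members were lower and 1 was higher, beside 6.73% and 36.6% of all genes. Without clusters 0 and 1, 26 members were lower and 0 higher, where 23.6% and 3.79% of genes were. Under TMM 2 were then lower and 2 higher (4.20% and 17.4% of genes), and the members' median turned from -0.46 to 0.02. Rod genes summed to 0.102% of the UMIs of these cells in NRS and 0.0133% in aCXCR2, all 11 of the list being higher in NRS, and the neutrophil list to 3.48% and 16.3%, all 10 higher in aCXCR2. Their part in the members' ratios was not tested. Fewer such transcripts per cell and more of other RNA cannot be told apart in a share.

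**Figure D2:**
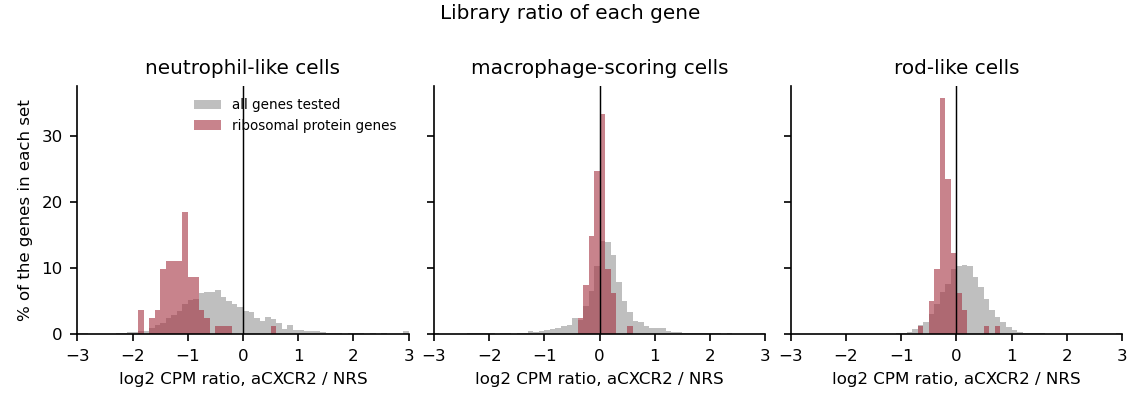
Distribution of log2 ratios, aCXCR2 over NRS, on total UMIs for the 81 members tested and for all genes tested, in neutrophil-like cells, macrophage-scoring cells and rod-like cells (percent of each set per bin of 0.1; ratios past 3 in either direction fall in the end bins). In neutrophil-like cells the members centre on -1.13 and all genes on -0.49, and Rps9 is the 1 member to the right of 0.

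Rps9, which binds 18S ribosomal RNA early in assembly, varied the most of the small-subunit members in its part of the ribosomal protein UMIs across clusters. In neutrophil-like cells it had 1131 CPM (NRS) and 1678 CPM (aCXCR2), a log2 ratio of 0.57 (0.54 to 0.59). It was the only one of the 81 tested that was higher in aCXCR2 on total UMIs. As a part of all ribosomal protein UMIs in these cells it was 1.37% in NRS and 4.30% in aCXCR2. Rps9 was higher in aCXCR2 in 6 of the 7 neutrophil-like clusters compared, with log2 ratios up to 0.58, and lower in cluster 11 (-0.14). Macrophage-scoring cells had 1765 CPM (NRS) and 2497 CPM (aCXCR2) of Rps9, a log2 ratio of 0.50, and in each of the 3 such clusters compared it was the higher in aCXCR2, by 0.04 to 0.29. It was the 1 member of which that held in all 3, as it did of 31.3% of all genes tested. In rod-like cells the libraries had 680 and 677 CPM.

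The largest gaps lay at other sites of the ribosome. Rpl12, which with Rplp0 forms the base of the stalk where elongation factors dock, had 735 CPM (NRS) and 198 CPM (aCXCR2) in neutrophil-like cells, 3.71-fold lower in aCXCR2. Rps28, near the exit of the messenger RNA from the small subunit, had 1504 and 421 CPM (3.57-fold lower). Rps19, the gene most often mutated in Diamond-Blackfan anaemia, had 1734 and 492 CPM (3.53-fold lower). Each of these was lower in aCXCR2 in all 7 neutrophil-like clusters compared, as were 44 of the 81 members on total UMIs and 22.3% of all genes tested. Under TMM their class ratios were -1.17, -1.11 and -1.09, still lower in aCXCR2, but TMM leaves the unequal mix of clusters in place. Within single clusters the log2 ratios on total UMIs ran from -1.86 to -0.27 for Rpl12. They ran from -1.91 to -0.35 for Rps28 and from -1.74 to -0.22 for Rps19. In macrophage-scoring cells Rpl12 had 863 and 739 CPM, Rps28 1676 and 1315 CPM, and Rps19 1661 and 1565 CPM.

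The stalk proteins and Rpsa had log2 ratios from -1.34 to -1.60 in neutrophil-like cells, beyond the members' median of -1.13. Rplp0, the stalk's anchor, had 1448 CPM (NRS) and 524 CPM (aCXCR2) in neutrophil-like cells. Rplp1, one of the acidic stalk proteins, had 1946 and 642 CPM. Its partner Rplp2 had 1576 and 621 CPM. Rpsa, the laminin-binding protein needed to mature the small subunit, had 922 and 339 CPM. Within single neutrophil-like clusters the log2 ratios ran from -1.38 to -0.25 for Rplp0 and from -1.72 to -0.21 for Rplp1. They ran from -1.35 to -0.20 for Rplp2 and from -1.44 to -0.05 for Rpsa. In macrophage-scoring cells Rplp0 went the other way, with 1618 and 1884 CPM (log2 ratio 0.22), and Rplp1 had 2507 and 2075 CPM (-0.27). Both are under the 1.5-fold mark.

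Rpl10a, of the mobile L1 stalk, and Rpl3, which reaches the peptidyl transferase centre, were low in neutrophil-like cells even for ribosomal protein genes. Rpl10a had 299 CPM (NRS) and 93.0 CPM (aCXCR2) there, against 754 and 736 CPM in macrophage-scoring cells and 788 and 734 CPM in rod-like cells. Rpl3 had 318 and 101 CPM in neutrophil-like cells, 846 and 917 CPM in macrophage-scoring cells and 888 and 743 CPM in rod-like cells. In both libraries the neutrophil-like level of each was the lowest of the 3 classes. In aCXCR2 that was common: 81 of 81 members were above the neutrophil-like level in macrophage-scoring cells and 75 in rod-like cells. In NRS these numbered 69 and 30.

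Besides Rps9, 3 of the members tested were under 1.5-fold apart in neutrophil-like cells. Rps27a, which is made as a fusion with ubiquitin, had 1202 CPM (NRS) and 970 CPM (aCXCR2) (log2 ratio -0.31), and was higher in aCXCR2 in 6 of 7 clusters, by up to 0.23. Rpl37, a zinc-binding protein, had 1135 and 845 CPM (-0.43). Rpl22l1, the paralog of Rpl22, had 64.9 and 54.0 CPM (-0.27). Under TMM these turned to 0.41, 0.30 and 0.46.

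The members with the highest levels over all kept cells were Rps29, Rpl41, Rpl23, Rps9 and Rplp1. Rps29, a zinc-binding protein of the small-subunit head, had 2640 CPM (NRS) and 1096 CPM (aCXCR2) in neutrophil-like cells, and 3803 and 3636 CPM in macrophage-scoring cells. Rpl41, the smallest ribosomal protein, had 2083 and 1159 CPM in neutrophil-like cells and 2864 and 2700 CPM in macrophage-scoring cells. Rpl23, known also as a binder of Mdm2, had 1620 and 839 CPM in neutrophil-like cells and 2550 and 2336 CPM in macrophage-scoring cells. Members at or above 1000 CPM numbered 44 in NRS and 4 in aCXCR2 neutrophil-like cells, and 56 in macrophage-scoring cells of either library.

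Paralogs differed within their pairs. Rps27 had 2862 CPM (NRS) and 1471 CPM (aCXCR2) in neutrophil-like cells (log2 ratio -0.96). Rps27l, a near copy that p53 induces, had 612 and 223 CPM (-1.46). Both were higher in neutrophil-like than in macrophage-scoring cells of NRS, where Rps27 had 1771 CPM and Rps27l 315 CPM. For Rps27l this leaned on clusters 0 and 1, with 764 and 808 CPM in NRS. The NRS cells of clusters 3, 4, 5, 8 and 11 had 411, 253, 464, 421 and 147 CPM of it. In aCXCR2 both were the lower in neutrophil-like cells on total UMIs, Rps27 with 1471 against 1694 CPM and Rps27l with 223 against 304 CPM, but the TMM shift of -0.28 for this pair of classes turns the log2 ratio of 0.20 for Rps27. Rpl22, which developing T cells require, had 866 and 366 CPM in neutrophil-like cells, a log2 ratio of -1.24 beside -0.27 for Rpl22l1. In rod-like cells Rpl22 had 716 and 640 CPM while Rpl22l1 had 198 and 280 CPM. Rpl7 had 600 and 307 CPM in neutrophil-like cells, and Rpl7l1, a nucleolar relative, 107 CPM in NRS with a log2 ratio of -1.10. Rpl36a had 328 and 114 CPM and its paralog Rpl36al 264 and 118 CPM. Rps4x, the X-linked form of Rps4, had 406 and 240 CPM in neutrophil-like cells and 1294 and 1496 CPM in macrophage-scoring cells.

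Tissue-restricted paralogs were close to absent. Rpl39l, known from testis, had 0.34 and 0.47 CPM in neutrophil-like cells beside 994 and 468 CPM for Rpl39. Rpl10l had no UMI in any kept cell, beside 782 and 444 CPM for Rpl10 in neutrophil-like cells. Rpl3l, known from striated muscle, had 24.1 and 20.9 CPM in neutrophil-like cells and 1.83 to 2.30 CPM in macrophage-scoring and rod-like cells. Rpl3l (chr17:24727820-24736143, plus strand) ends 498 bases before Msrb1 on the same strand. Msrb1, named here after its values were seen, had 1866 and 1865 CPM in neutrophil-like cells, 612 and 506 CPM in macrophage-scoring cells and 143 and 126 CPM in rod-like cells. Whether reads near Msrb1 entered the Rpl3l counts was not tested.

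Macrophage-scoring cells had almost the same ribosomal protein share in both libraries. It was 10.8% in NRS (10.7 to 10.8%; 602 cells) and 10.6% in aCXCR2 (10.6 to 10.7%; 1764 cells), a log2 ratio of -0.02. Of 81 members 0 were higher and 0 were lower by 1.5-fold, where 11.2% of all genes tested were higher and 6.28% lower. The median log2 ratio was 0.01 over members and 0.12 over all genes. The widest ratios were 0.50 for Rps9 and -0.35 for Rps28. Rpl18 had 975 CPM (NRS) and 1161 CPM (aCXCR2) (0.25), and Rpl13a, known from the interferon-gamma-activated inhibitor of translation in monocytes, 185 and 148 CPM (-0.32). Neutrophil genes summed to 0.173% and 0.380% of the UMIs of these cells.

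The near equality was a sum of unequal clusters. Cluster 9, led by Ccr2, Ly6c2 and MHC class II genes, had the highest share of this class, 14.4% in NRS (28 cells) and 12.7% in aCXCR2 (596 cells), and gave 596 of the 1764 aCXCR2 cells. Cluster 2, led by C1q genes, Ccl8 and Mrc1, had 11.4% and 10.3%. Cluster 13, led by Spp1, Gpnmb and Trem2, had 10.6% and 10.2%. Cluster 10, led by Arg1, Mmp12 and Cxcl3, had the lowest, 9.90% and 8.14%. Of the 81 members, 50 were lower in aCXCR2 on total UMIs in all 3 clusters that both libraries filled, as were 10.0% of all genes tested. In cluster 10 the log2 ratio was -0.28, and -0.40 under TMM. The members lower by 1.5-fold numbered 0 in each of the 3, where 7.67%, 2.06% and 1.32% of genes were lower in clusters 2, 10 and 13.

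Rod-like cells, which carry the markers of rod photoreceptors, had 6.98% in NRS (626 cells) and 6.02% in aCXCR2 (208 cells), a log2 ratio of -0.21. Their clusters went opposite ways. Cluster 6 had 7.08% and 7.34% (log2 ratio 0.05), and cluster 15, led by Dusp8 and Atf4, 5.36% and 4.52% (-0.25). The class ratio was not recomputed with like mixes of clusters. Cluster 15 supplied 58 of the NRS cells and 82 of the aCXCR2 cells, and 7 of 81 members were lower in it (4.92% of genes). By 1.5-fold 1 member was higher and 1 lower, where 11.9% of genes were higher and 3.50% lower. The higher member was Rpl7l1, with 71.0 and 117 CPM. The lower was Rps21, a small-subunit protein, with 1245 and 799 CPM. Under TMM 0 were higher and 5 lower (5.52% and 8.16% of genes). Rpl35 had 450 and 327 CPM, Rps29 1870 and 1371 CPM, and Rpl39 922 and 685 CPM. Rod genes summed to 4.62% of the UMIs of these cells in NRS and 3.21% in aCXCR2, all 11 of the list being higher in NRS, and neutrophil genes to 0.241% and 0.735%.

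Within a library, macrophage-scoring cells carried more ribosomal protein RNA than neutrophil-like cells. The log2 ratio of the shares was 0.39 in NRS and 1.45 in aCXCR2. In NRS 26 members were at least 1.5-fold higher and 3 lower in macrophage-scoring cells, where 18.4% of genes were higher and 45.6% lower. Under TMM these were 55 and 2 members, beside 29.0% and 27.1% of genes. In aCXCR2 77 members were higher and 0 lower on either scaling, where 38.3% of genes were higher and 23.3% lower on total UMIs, and 27.1% and 33.6% under TMM. The NRS ratio depended on clusters 0 and 1: without them it was 1.12, and without cluster 1 alone 0.60.

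Rod-like cells had the smaller share in NRS and the larger in aCXCR2, compared with neutrophil-like cells. The log2 ratio of shares, rod-like over neutrophil-like, was -0.24 in NRS and 0.63 in aCXCR2. In NRS 8 members were higher in rod-like cells and 16 lower (47.6% and 28.3% of genes), and in aCXCR2 47 were higher and 2 lower (67.3% and 20.9%). Under TMM 3 were higher and 59 lower in either library (27.1% and 49.3% of genes in NRS, 19.9% and 62.0% in aCXCR2), so the direction of the members in aCXCR2 turned with the scaling. The order in NRS also rested on clusters 0 and 1: without them the neutrophil-like share was 4.94% in NRS and 3.63% in aCXCR2, below the rod-like share in both libraries.

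The make-up of the ribosomal protein UMIs was next compared with the total set aside, as each member's percent of all member UMIs in the 30 combinations of cluster and library with at least 50 cells. The members' parts varied to unequal degrees. The standard deviation of the log2 percent had a median of 0.28 over the 81 members, and 32 members were under 0.25. Rps3a1, of the small-subunit platform, was the steadiest, between 1.19% and 1.66%. Next came Rpl27a, Rps14 and Rpl11, with standard deviations of 0.11, 0.11 and 0.12. The small subunit gave 45.4% and 46.9% of member UMIs in neutrophil-like cells, 44.2% and 44.9% in macrophage-scoring cells and 44.4% and 43.3% in rod-like cells.

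Rpl10a varied the most, with a standard deviation of 0.95, from 0.13% in cluster 11 of aCXCR2 to 1.46% in cluster 15 of aCXCR2. Rps9 ran from 0.83% in cluster 1 of NRS to 7.42% in cluster 12 of aCXCR2. In clusters with a low total its part was high, 3.60% in NRS and 6.24% in aCXCR2 in cluster 4, and 5.03% and 5.50% in cluster 11. In level it moved less, from 586 to 3118 CPM over the same 30 combinations and from 870 to 1986 CPM over the neutrophil-like ones. Rps27 ran from 1.34% in cluster 13 of aCXCR2 to 6.08% in cluster 11 of NRS. Rpl12 ran from 0.18% in cluster 12 to 1.02% in cluster 1 of NRS.

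**Figure D3:**
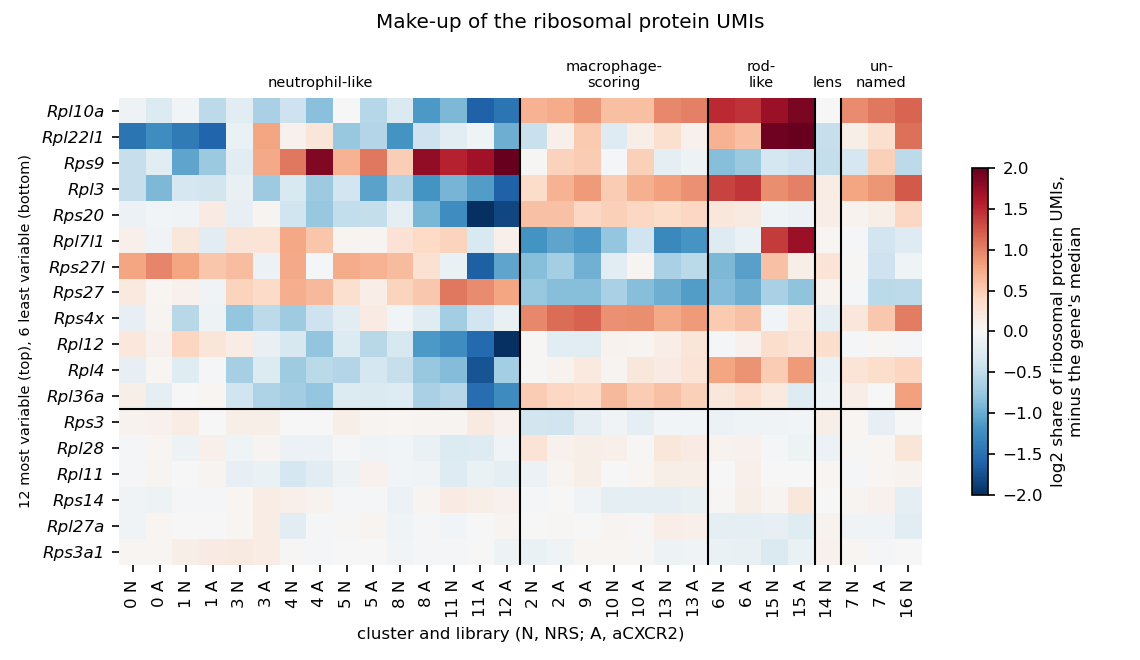
Part of each gene in all ribosomal protein UMIs (log2, relative to that gene's median) for the 12 most and 6 least variable members, in 30 combinations of cluster and library (N, NRS; A, aCXCR2). Rps9 and Rps27 are high in the neutrophil-like columns with low totals, and Rps4x in the macrophage-scoring columns. Rpl3 and Rpl10a are high in the macrophage-scoring columns and higher still in the rod-like ones. The 6 lower rows stay near 0.

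Some members differed between classes in their part of that mix, in both libraries, when summed over each class. Relative to all ribosomal protein UMIs, and as the mean of the log2 ratios in both libraries, Rpl3 (1.38), Rpl10a (1.24), Rps4x (1.24) and Rpl22l1 (0.81) had the largest part in macrophage-scoring over neutrophil-like cells. Rpl7l1 (-1.27), Rps27l (-1.17), Rps27 (-1.16) and Rps25 (-0.46) had the smallest. For rod-like over neutrophil-like cells, Rpl10a (1.99), Rpl3 (1.99), Rpl22l1 (1.80) and Rpl4 (1.19), which lines part of the exit tunnel, led. Rps27l (-1.22), Rps9 (-1.22), Rps27 (-1.19) and Rplp0 (-0.79) were at the other end. Scaling has no part in these ratios, since they are taken within the member UMIs. Single clusters did not all follow the class sums. The lowest and highest parts of Rps27l were both in neutrophil-like clusters of aCXCR2, 0.14% in cluster 11 and 0.87% in cluster 0. Rps9 had its lowest part in neutrophil-like cluster 1 of NRS (0.83%).

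Most other genes of the translation machinery were also lower in aCXCR2 neutrophil-like cells. Of 6 elongation factor genes tested 5 were at least 1.5-fold lower in aCXCR2. Eef1a1, which brings aminoacyl-tRNA to the ribosome, had 1629 CPM (NRS) and 890 CPM (aCXCR2), and Eef2, which drives translocation, 284 and 155 CPM. Of 28 initiation factor genes tested 22 were lower, but Eif1, which helps select the start codon, had 2078 and 2051 CPM. Of 37 mitochondrial ribosomal protein genes tested 30 were lower. Only Mrpl33 among them was higher by 1.5-fold, with 269 and 419 CPM (log2 ratio 0.64). All these counts are set against the same 43.5% of genes lower. All 4 tested genes of nucleolar assembly, where ribosomes are built, were lower. Gnl3 had 79.4 and 16.6 CPM and Ncl 315 and 124 CPM. The median log2 ratios were -0.89 for elongation, -1.003 for initiation, -1.04 for the mitochondrial ribosome and -1.61 for nucleolar assembly, and each stays below 0 with the TMM shift of 0.72 added. As for the members, most of these calls were lost without clusters 0 and 1. Then 1 of 6 elongation, 11 of 23 initiation, 0 of 18 mitochondrial ribosome and 1 of 2 nucleolar genes tested were lower, where 23.6% of genes were.

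Genes made with or beside ribosomal proteins differed less evenly. Rack1, a scaffold on the small subunit, had 491 CPM (NRS) and 220 CPM (aCXCR2). Fau, a ubiquitin-like fusion with a small-subunit protein, had 4068 and 2891 CPM, and Tpt1, another TOP message, 3005 and 2562 CPM. Among the 6 companions 3 were lower by 1.5-fold, with Rack1 and Naca (577 and 235 CPM) among them, a share near the 43.5% of all genes. Of 5 tested control genes of translation 2 were lower and 1 higher. Eif4ebp1, a repressor of cap-dependent initiation that mTOR switches off, was the higher one, with 223 and 335 CPM (log2 ratio 0.59). Larp1, the TOP-binding protein, had 56.6 and 27.8 CPM, and the other lower gene was Rheb, an activator of mTOR (log2 ratio -0.76). In macrophage-scoring cells 0 genes of these 6 lists were 1.5-fold apart in either direction. Eif4ebp1 had 154 and 226 CPM there.

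Over the 15 combinations of neutrophil-like cluster and library, the share of these lists went with the ribosomal protein share. Pearson's r was 0.99 for the mitochondrial ribosome (Spearman's rho 0.98), 0.96 for elongation factors (0.93) and 0.96 for nucleolar assembly (0.97), and it was -0.88 for S100a8 and S100a9 (-0.93). Over all 30 combinations it was 0.94 for elongation factors (rho 0.94) but 0.66 for the mitochondrial ribosome (0.43). These are descriptions only. The points share 2 libraries, their denominators and the clustering, and are not independent.

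**Figure D4:**
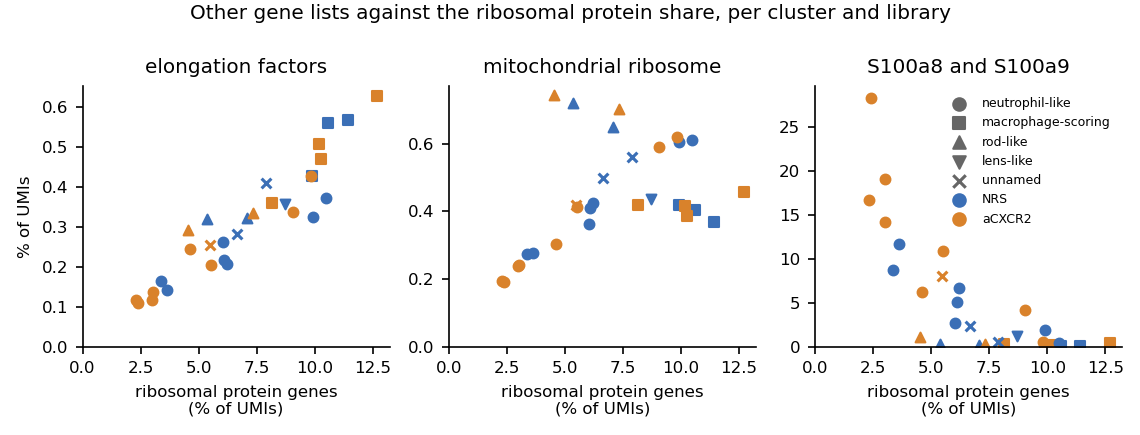
Share of UMIs (percent) from elongation factor genes, mitochondrial ribosomal protein genes and S100a8 with S100a9 against the ribosomal protein share, with 1 point per cluster and library of at least 50 cells (blue, NRS; orange, aCXCR2; shapes give the class). Rod-like points lie above the others for the mitochondrial ribosome, neutrophil-like points rise along both of the first panels, and S100a8 and S100a9 reach 28.3% of UMIs where the ribosomal protein share is 2.40%.

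Depth moved with the share more in NRS than in aCXCR2. With cells ranked by UMIs and cut into 4 equal bins, the neutrophil-like share in NRS was 6.91%, 6.68%, 8.15% and 9.33% from the lowest to the highest bin, and in aCXCR2 3.90%, 3.57%, 3.95% and 4.01%. In macrophage-scoring cells it was 12.4% in the lowest and 10.4% in the highest bin in NRS, and 11.3% and 9.80% in aCXCR2. Barcodes with over 10% mitochondrial UMIs, which were not kept, had member shares of 6.53% in NRS and 4.22% in aCXCR2. Without the shared barcodes the log2 ratios between libraries were -1.08 in neutrophil-like, -0.02 in macrophage-scoring and -0.20 in rod-like cells.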

How the data were processed

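The deposited files held counts per gene and barcode for 2 libraries, 1 per group, which were taken to be raw UMI counts. The software version in the file headers is 3.0.0. Cell Ranger and Seurat, without versions, stand in the submitters' processing notes, beside a human build (GRCh38), although the gene IDs deposited are of mouse. No mouse build was found in the labels or headers. Positions come from GENCODE vM21 and RefSeq. Members and gene lists were chosen with earlier results of these data known.

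Barcodes were kept from 500 UMIs and 200 genes up, with mitochondrial UMIs of 10% or less. Scrublet marked 0 and 4 doublets and so has not worked. Doublets must be taken to remain, and an alternative removed the 256 and 186 highest scores. Both libraries were clustered together without the member genes (scanpy 1.11.5, leidenalg 0.10.2; 2000 variable genes, 30 principal components, 15 neighbours, resolution 1). Barcodes with over 1% haemoglobin UMIs, 22 in all, were set aside after seeing the data. The class scoring rule, also set after seeing the data, compared marker levels with a prior of 100 CPM. It left clusters unnamed under 20 cells, under a score of 0.15, or with 2 classes at 0.5 or above. Macrophage-scoring means that monocyte or macrophage markers scored best.

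Per library and class, counts were added up and scaled to all UMIs. Ratios are aCXCR2 over NRS unless stated. A gene was compared from 50 CPM in either library up, with 1.5-fold as the mark. Intervals at 95% are exact (Clopper-Pearson, Poisson or conditional) and cover counting error only. Named members are the stalk proteins, Rpsa and paralog pairs, the 5 highest, the 4 largest and 4 smallest ratios between libraries in each class, and the 4 at either end of the class ratios within member UMIs. Other genes come from the fixed companion lists, and the text gives part of what the rule takes; some are not reported here. Members shown for their spread across clusters were chosen after their values were seen. Alternatives changed the cell filter, doublets, clustering, denominator, weighting, CPM minimum and scaling (TMM, edgeR 4.0.16, R 4.3.3). Leaving out shared barcodes or clusters 0 and 1, adding the mixed cluster to rods, and TMM beyond neutrophil-like cells were chosen after seeing the data. The arithmetic was tested on simulated data. Python 3.11.15 was used with scipy 1.17.1, numpy 2.4.6, pandas 2.3.3 and matplotlib 3.10.9.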

Additional observations from a re-analysis of the deposited data

How the results depend on the processing

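The 5 ratios of shares kept their direction under the alternatives run for them, and their sizes moved. No alternative gave the rod-like clusters the same mix in both libraries. Rod-like cluster 6 alone had a log2 ratio of 0.05, and cluster 15 one of -0.25. On the log2 scale the neutrophil-like ratio was -1.09 under the stricter cell filter, -1.07 at resolution 0.5, -0.97 with libraries clustered separately, -0.78 without abundant genes in the total, -0.99 as a mean over cells, -0.91 without cluster 1 and -0.44 without clusters 0 and 1. The macrophage-scoring ratio was -0.046 under the stricter filter, -0.011 without the highest doublet scores, -0.041 with separate clustering, -0.022 without mitochondrial genes, -0.093 without abundant genes and -0.079 as a mean over cells. The rod ratio was -0.25 under the stricter filter, -0.18 without the highest doublet scores, -0.27 with member genes kept and at resolution 0.5, -0.22 with separate clustering, -0.25 without mitochondrial genes, -0.23 without abundant genes, -0.15 as a mean over cells, -0.20 without shared barcodes and -0.25 with mixed cluster 7 added. Macrophage-scoring over neutrophil-like cells in NRS was 0.40 (stricter filter), 0.38 (member genes kept), 0.52 (separate clustering), 0.43 (no mitochondrial genes), 0.52 (no abundant genes), 0.56 (mean over cells), 0.39 (no shared barcodes), 0.60 (no cluster 1) and 1.12 (no clusters 0 and 1). In aCXCR2 it was 1.44 (stricter filter), 1.45 (member genes kept), 1.44 (resolution 0.5), 1.48 (no mitochondrial genes), 1.204 (no abundant genes), 1.47 (mean over cells), 1.501 (no cluster 1) and 1.55 (no clusters 0 and 1). Members at least 1.5-fold apart in neutrophil-like cells numbered 77, but 26 under TMM and 26 without clusters 0 and 1, and 75 to 77 otherwise. The cause of these moves was not tested. No paired analysis was possible because each group has 1 library. Intervals cover counting error alone, and no spread between mice can be given.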

Other observations

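Clusters outside the 3 classes above included the one with the highest ribosomal protein share, cluster 17, led by MHC class II genes, Fscn1, Ccl5 and Gzmb and left unnamed because T or NK and dendritic markers both scored high. It had 20.5% in NRS (17 cells) and 18.4% in aCXCR2 (24 cells). Lens-like cluster 14, led by crystallins and Hspa1a, had 8.70% in NRS (136 cells) and 6.73% in aCXCR2 (10 cells). Unnamed cluster 16, led by Ttr, Ptgds and Clu, had 7.88% (99 cells) and 8.31% (27 cells). Cluster 18, with cone and rod genes, had 6.997% (27 cells) and 4.92% (3 cells). Cluster 7, with rod and neutrophil genes together, had 6.66% and 5.47%.

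In rod-like cells some other genes of the machinery were higher in aCXCR2, beside 1 of 81 ribosomal protein genes, Rpl7l1. By 1.5-fold, 4 of 8 nucleolar assembly genes and 14 of 66 mitochondrial ribosomal protein genes were higher, with 11.9% of all genes higher on total UMIs. Of the mitochondrial ribosomal protein genes 2 were lower, where 3.50% of all genes were. TMM moves each of these log2 ratios by -0.17, and under it 5.52% of all genes were higher. The calls on these lists were not recounted under TMM. Among the initiation factors 4 of 29 were higher, a part near that of all genes. Cluster 15, which gave 58 of 626 NRS and 82 of 208 aCXCR2 rod-like cells, was the richer in nucleolar assembly genes, with 0.210% of UMIs in NRS and 0.223% in aCXCR2, against 0.132% and 0.151% in cluster 6. For the mitochondrial ribosome these were 0.722% and 0.743%, against 0.650% and 0.702%. The part of this mix in the class values was not tested.

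Genes named as copies of members, which are no members, were also lower in aCXCR2 neutrophil-like cells on total UMIs. Rps27rt had 145 and 82.5 CPM in neutrophil-like cells, and 67.6 and 66.7 CPM in macrophage-scoring cells. Rpl10-ps3 had 32.7 and 20.6 CPM, and Rpl27-ps3 19.8 and 8.36 CPM, in neutrophil-like cells. The log2 ratios of Rps27rt, Rpl10-ps3 and Rpl27-ps3 there were -0.82, -0.67 and -1.24. The median over all genes from 10 CPM up was -0.61, and TMM moves each ratio up by 0.72. These copies were named after their values were seen.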
